A study of Mus musculus with 6 samples.

Results

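Kupffer cell nuclei of the liver were picked from 6 single-nucleus libraries by a rule on transcript counts, and 922 of 39012 kept nuclei met it (41882 barcodes in all). A kept nucleus had more than 200 and fewer than 5000 genes detected and under 5% of its unique molecular identifiers (UMIs, the count of captured transcripts) on mitochondrial genes. A Kupffer nucleus also had to have UMIs of at least 2 of the 5 marker genes Clec4f, Vsig4, Cd5l, Timd4 and Marco, with 3 or more in sum, and at least 1 UMI of Ptprc, Csf1r or Adgre1. It could hold at most 1 UMI in sum of Stab2, Ptprb, Skap1, Ebf1 and Reln, which mark endothelial, T, B and stellate cells. These 13 genes chose the nuclei, so their values are given as a description without a test.

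The livers came from 6 male DIAMOND mice, a line from a cross of 129A1/SvIm and C57BL/6J mice whose diets began at 2 months of age. Of these mice, 2 ate the Chow Diet for 40 weeks (Ctrl). Another 2 ate the Western Diet for 40 weeks and were taken before tumors (Pre-T), and the last 2 ate it for 48 weeks and had tumors (Post-T). The Western Diet was high in fat and was given with sugar water, so fat, sugar and, in the Post-T group, time and tumor cannot be told apart. Titles of the Post-T samples name tumor while their tissue label names liver, and which part of the liver was taken is not given in the sources used here. Each library was 1 mouse, so n = 2 mice per group throughout, and where 6 values stand in a row they belong to the Ctrl, then the Pre-T and then the Post-T mice, replicate 1 before replicate 2.

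Kupffer cells are the resident macrophages of the liver and sit in the sinusoids, where they are in contact with blood and endothelium. They take up bacteria, ageing red cells and lipoproteins through scavenger and complement receptors, return iron through the exporter ferroportin, and keep their identity through signals from neighbouring cells and transcription factors such as the liver X receptor and Spi-C. In fatty liver disease, part of them is known to be lost and replaced by cells from blood monocytes, and macrophages that express a lipid-handling program (Gpnmb, Trem2, Cd9, Spp1 and others) are known to appear.

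The number of Kupffer nuclei was 132, 115, 211, 376, 44 and 44 in the 6 mice. They made up 1.83% of the kept nuclei of Ctrl 1 (95% interval 1.53 to 2.16, exact binomial) and 1.48% of those of Ctrl 2 (1.22 to 1.77). In Pre-T 1 the share was 3.90% (3.40 to 4.45) and in Pre-T 2 4.79% (4.33 to 5.29). In Post-T 1 it was 0.810% (0.589 to 1.09) and in Post-T 2 0.827% (0.601 to 1.11). Kupffer nuclei were thus most frequent in both Pre-T mice and least frequent in both Post-T mice, and the 3 pairs of mice did not overlap, with means of 1.65% ± 0.245 (SD, n = 2), 4.35% ± 0.629 and 0.818% ± 0.0118. The intervals cover counting error only.

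Against a smaller denominator the order was another one. Among nuclei with a UMI of Csf1r or Adgre1, genes of macrophages and monocytes, Kupffer nuclei made up 19.8% and 20.4% in the Ctrl, 13.7% and 13.1% in the Pre-T and 3.83% and 11.3% in the Post-T mice. The number of nuclei with such a UMI was 600, 509, 1418, 2358, 991 and 379, and not all of them need be myeloid: of nuclei with endothelial transcripts, chosen without regard to myeloid genes, 2.88, 2.60, 10.8, 19.4, 7.85 and 1.40% had one. With at least 2 UMIs of both genes in sum, found in 0.576, 0.306, 2.15, 5.57, 1.45 and 0% of those endothelial nuclei, the Kupffer shares were 33.3, 37.4, 20.5, 21.9, 7.85 and 18.8%. Both Ctrl mice were thus highest under either limit, and what part nuclei that are not myeloid had in these shares was not tested. Kept nuclei with fewer than 1000 UMIs (992, 1794, 842, 2360, 1583 and 1254) were left out of this and every later thinned value. After the other kept nuclei had been thinned to 1000 UMIs, the Kupffer shares were 1.63, 1.64, 3.75, 4.48, 0.468 and 0.737%, in the same order of groups. Without thinning, requiring 5 or more marker UMIs gave 1.51, 1.25, 3.18, 3.03, 0.626 and 0.676% of all kept nuclei.

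**Figure D1:**
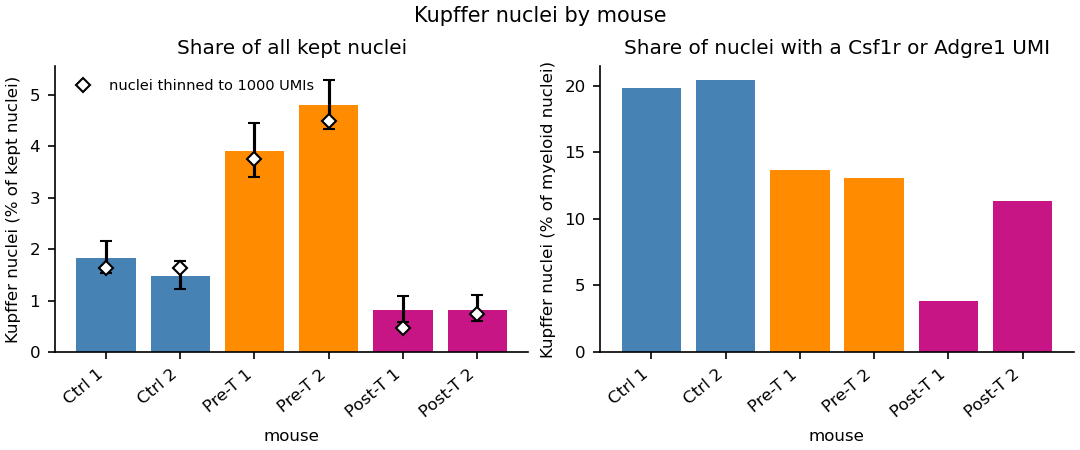
Left, Kupffer nuclei as a percentage of all kept nuclei in each mouse (bars) with exact binomial 95% intervals (lines). Diamonds give the share after thinning to 1000 UMIs, among kept nuclei with at least 1000 UMIs. Right, the percentage among nuclei with a Csf1r or Adgre1 UMI. Both Pre-T mice stand highest on the left, at 3.90 and 4.79%, while both Ctrl mice stand highest on the right, at 19.8 and 20.4%.

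The 5 markers did not stand for the same nuclei in every group. Clec4f, a C-type lectin found on Kupffer cells (chr6:83644542-83656187, minus strand, GRCm38), had a level of 1443, 1693, 642, 659, 87.2 and 168 CPM, which are UMIs of a gene per 1000000 of the UMIs summed over the Kupffer nuclei of that mouse. It was detected in 92.4, 93.0, 57.8, 72.9, 29.5 and 29.5% of them, and in 80.3, 80.9, 37.5, 45.5, 9.52 and 16.3% after thinning. Both Ctrl mice were thus highest and both Post-T mice lowest.

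Cd5l, a secreted protein of tissue macrophages, stood at 1440, 1517, 2244, 1577, 1128 and 1688 CPM and was found in 91.3 to 100% of the nuclei. Vsig4, a complement receptor, stood at 593, 822, 696, 618, 580 and 642 CPM. Timd4, a receptor for phosphatidylserine on dying cells, had 439, 508, 312, 330, 108 and 436 CPM. Timd4 was lowest in Post-T 1, where it was detected in 20.5% of the nuclei against 46.3 to 61.4% in the other mice. Marco, a scavenger receptor, was rare, at 20.0, 3.46, 0, 2.44, 71.8 and 18.7 CPM. In Post-T mice, membership therefore rested more on Cd5l and Vsig4, and in Ctrl mice on Clec4f as well. Of the 3 genes of which 1 UMI was required, Ptprc, the leukocyte phosphatase CD45, had 627, 657, 1336, 1117, 1421 and 1059 CPM and Csf1r, the receptor of macrophage growth factor, 473, 539, 427, 379, 380 and 486 CPM. Adgre1, which encodes F4/80, had 704, 746, 910, 628, 1431 and 841 CPM.

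At the edge of the rule, 11, 12, 18, 92, 5 and 3 nuclei had exactly 3 marker UMIs and were inside. Another 12, 11, 28, 221, 29 and 4 had exactly 2 and were outside. The edge was thus most crowded in Pre-T 2, and in Post-T 1 the 29 nuclei just outside stood beside 44 members. The limit on genes of other cells removed 93, 93, 162, 288, 8 and 22 nuclei that met every other condition, and the upper limit on genes 3, 4, 9, 12, 4 and 0. No doublet caller was run, and these 2 limits were the only guard against droplets with more than 1 nucleus. No barcode of a Kupffer nucleus was shared between libraries, while any pair of libraries had 7 to 21 barcodes in common.

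Genes that are known for Kupffer cells and were not part of the rule had a higher sum in Kupffer nuclei of every mouse than in the other classes compared. A list of 17 such identity genes summed to 4265, 5242, 3408, 2718, 1416 and 3028 CPM in Kupffer nuclei. The same list reached 441 to 939 CPM in other myeloid nuclei, which had at least 3 UMIs of 2 of Ptprc, Csf1r and Adgre1 but no UMI of the 5 markers (35, 38, 360, 242, 286 and 134 nuclei). In endothelial nuclei (472, 615, 248, 203, 282 and 1084, chosen by Stab2 and Ptprb) it reached 588 to 1179 CPM. The sum in Kupffer nuclei was highest in the 2 Ctrl mice and lowest in Post-T 1. In Post-T 1 other myeloid and endothelial nuclei had 734 and 730 CPM, so there the list set Kupffer nuclei apart least. Slc40a1, which encodes ferroportin, had 1600, 1814, 1319, 893, 318 and 1128 CPM. Nr1h3, which encodes liver X receptor alpha, had 237, 221, 306, 231, 328 and 355 CPM, so that the Post-T mice were not below the Ctrl mice for this gene.

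**Figure D2:**
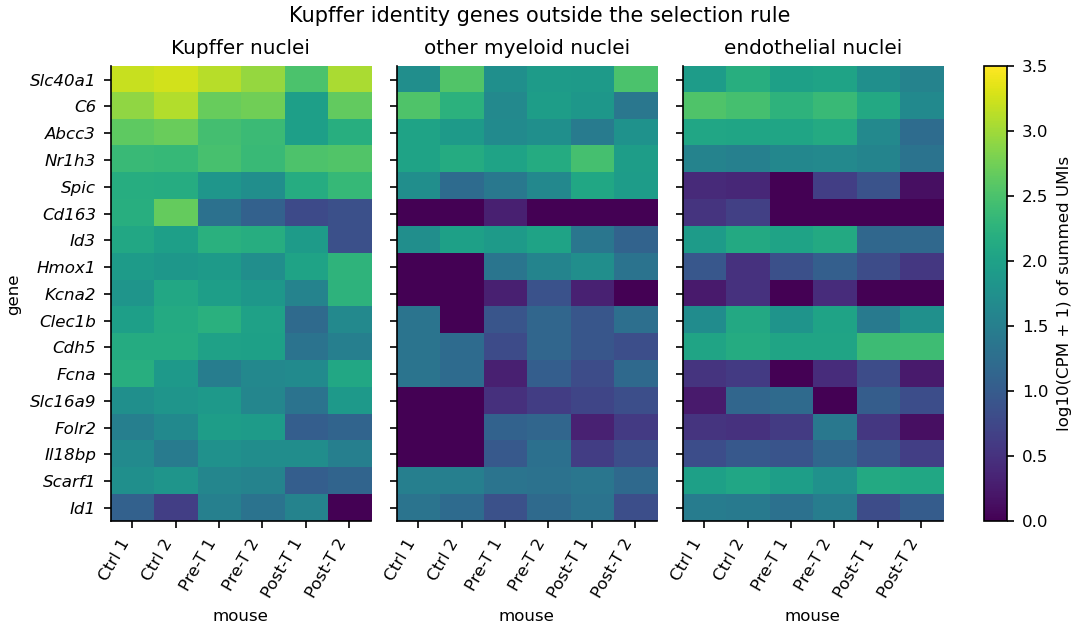
Levels of the 17 Kupffer identity genes outside the rule as log10(CPM + 1) of summed UMIs, one column per mouse, in Kupffer, other myeloid and endothelial nuclei. Slc40a1 is brighter in Kupffer nuclei (318 to 1814 CPM) than in the other myeloid and endothelial nuclei of the same mouse (35.8 to 350 CPM), and Cd163 is visible in Ctrl Kupffer nuclei and nearly dark in all other columns.

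Other cell types left few transcripts, with 2 exceptions. The endothelial, T and NK cell and stellate lists hold genes that the rule limits (Stab2 and Ptprb, Skap1, and Reln). Their low sums were therefore set in part by the selection, and the endothelial nuclei beside them were chosen by Stab2 and Ptprb. The T and NK cell list summed to 0 to 19.0 CPM with Cd3e at 0 in all 6 mice, the stellate list to 12.5 to 146 CPM, and the endothelial list to 41.0 to 238 CPM against 4011 to 7681 CPM in endothelial nuclei. Bank1, known as a B cell scaffold protein, was an abundant transcript of Kupffer nuclei (364 to 1748 CPM), while the B cell genes Cd79a and Ms4a1 were detected in at most 0.87% and 2.27% of them. The hepatocyte list summed to 19807, 16190, 5771, 16298, 4477 and 10666 CPM in Kupffer nuclei and to 23665, 15842, 8366, 17685, 8119 and 15301 CPM in endothelial nuclei. Hepatocyte transcripts were thus also present in a cell type that does not make them, with a higher sum than in Kupffer nuclei in every mouse except Ctrl 2. Erythroid genes summed to 171, 48.4, 256, 782, 1421 and 125 CPM in Kupffer and 146, 110, 213, 929, 2172 and 199 CPM in endothelial nuclei, highest in Post-T 1 and Pre-T 2.

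Post-T 1 stood apart from Post-T 2. Over 4318 genes with a mean of at least 50 CPM, the median absolute difference between the mice of a group on the log2(CPM + 10) scale was 0.507 in Post-T against 0.303 in Ctrl and 0.256 in Pre-T mice. The 44 nuclei of Post-T 1 had the highest median depth, 4127 UMIs, against 2042, 1913, 2982 and 2747.5 in the Ctrl and Pre-T mice and 3183 in Post-T 2. Results for Post-T mice are therefore given with each mouse and with Post-T 1 left out. The summed UMIs behind each mouse were 350729, 289370, 788715, 1231535, 194986 and 160509, so Post-T values are the least precise.

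Beside other myeloid nuclei of the same mice, 323 genes with a mean of at least 100 CPM in Kupffer nuclei were higher there in every mouse. Another 402 genes, with a mean of at least 100 CPM in other myeloid nuclei, were lower in Kupffer nuclei of every mouse. How many genes reached either limit was not counted, so neither number is a share. Because the rule itself separated these nuclei, this is a description. The largest median ratio was that of Pcolce2, an enhancer of procollagen processing, at 4.37 on the log2 scale (178 against 1.76 CPM over the mice), followed by Tmtc1 at 3.65 and the potassium channel Kcnj16 at 3.58. Btbd11, Dysf, Dmpk, Epb41l3, Ank2, Mmp27 and Slc40a1 came next, at 3.54 to 2.81. Dysf was also found in endothelial nuclei (263 CPM). Lowest were Gpr141 at -4.14, Setbp1 at -3.53, Ccdc88c at -3.48 and Sema4d next.

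The first comparison sets the Pre-T mice, after 40 weeks of the Western Diet and before tumors, against the Ctrl mice. Members were chosen by markers in each mouse. Whether a difference lay within the cells or in which cells were members was not tested. UMIs were summed per mouse and tested over 15919 genes with edgeR's quasi-likelihood test on all 6 mice, and adjusted p-values here are Benjamini-Hochberg values of that test. Between the Ctrl and the Pre-T mice 363 genes changed, 2.28% of those tested, with 158 higher (0.993%) and 205 lower (1.29%) in Pre-T. With RLE in place of TMM scaling the split was 76 higher and 163 lower. For 183 of the 205 lower genes, the level in Ctrl Kupffer nuclei was below that in all other nuclei of those mice. Hepatocyte transcripts were among these genes. This share was not counted over all tested genes, so it is not read as a result about the lower calls. Of 10 hepatocyte markers, 2 fell, Cps1, a urea cycle enzyme (2455, 2848, 526, 811, 118 and 349 CPM, log2 fold change -2.03 ± 0.44, adjusted p = 0.0142), and Pck1, of gluconeogenesis (-2.03, adjusted p = 0.0155), and both calls were lost without 1 of 3 mice (adjusted p up to 0.129 and 0.214 without Ctrl 1, Ctrl 2 or Pre-T 1). What part hepatocyte transcripts had in the lower calls was not tested. The groups' CPM did not overlap for 49.5% of all tested genes, so an absence of overlap between 2 and 2 mice is common here.

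Of the 14 gene lists, that of lipid-associated macrophages had the largest share of calls. Of its 16 genes, 10 rose and 0 fell in Pre-T Kupffer nuclei, with a median log2 fold change of 3.37 (3.03 with genes absent from Ctrl set at their lower bound) against 0.13 over all tested genes. The summed level of the list was 1120, 968, 3139, 3290, 1990 and 1994 CPM, and in endothelial nuclei 705, 545, 912, 1517, 960 and 806 CPM. Other myeloid nuclei had 838, 1114, 1835, 2306, 1412 and 2297 CPM, so the list was higher in all 4 Western Diet mice there too. The number called ranged from 4 to 13 over 15 other settings. It was 5 without Ctrl 1 and 6 without Ctrl 2, and 4 when genes with fewer than 10 counts were left out.

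Gpnmb, a membrane glycoprotein of lysosome-rich macrophages (chr6:49036546-49070929, plus strand), had 0, 0, 124, 139, 149 and 12.5 CPM. It was absent from both Ctrl mice and present in both Pre-T mice, at least 28.4-fold higher (adjusted p = 0.000469). It was detected in 16.1 and 12.8% of Pre-T Kupffer nuclei, in 2.02 and 2.96% of Pre-T endothelial nuclei, and in 0 of 132 and 0 of 115 Ctrl Kupffer nuclei, where 3 counts of the total allow up to 2.27 and 2.61% of nuclei with a UMI, which is no limit on nuclei that express the gene. Atp6v0d2, a subunit of the vacuolar proton pump, had 0, 0, 150, 95.8, 30.8 and 87.2 CPM and was at least 24.9-fold higher in Pre-T (adjusted p = 0.000115). Mmp12, macrophage elastase (chr9:7344381-7369499, plus strand), had 5.70, 0, 260, 296, 5.13 and 162 CPM. From its counts, the Pre-T to Ctrl ratio of Mmp12 was 90.1 (95% counting interval 24.8 to 746, adjusted p = 0.000523). Lpl, lipoprotein lipase (chr8:68880491-68907448, plus strand), had 74.1, 34.6, 573, 365, 82.1 and 224 CPM. The log2 fold change of Lpl was 3.01 ± 0.47 (SE, adjusted p = 0.000977), and it was detected in 12.1 and 8.70% of Ctrl and 55.0 and 38.6% of Pre-T nuclei (4.92, 5.32, 34.5 and 22.4% after thinning). In endothelial nuclei of these mice its detection was 6.36, 2.44, 15.3 and 17.2%. The calls of these 4 genes remained without any 1 Ctrl or Pre-T mouse.

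The other 6 members that rose did so on fewer counts or with a call that rested on single mice. Itgax, the integrin CD11c, was at 0 in both Ctrl mice and at 38.0 and 39.8 CPM in Pre-T mice, at least 8.34-fold higher (adjusted p = 0.003, and 0.0759 without Ctrl 1). Spp1, osteopontin, had 0, 3.46, 30.4, 104, 10.3 and 0 CPM (counting ratio 48.2, 8.51 to 1915, adjusted p = 0.00593, and up to 0.172 without Ctrl 1 or Pre-T 2). Its endothelial level was 87.0 CPM in Pre-T 2 as well. Trem2, a lipid receptor, had 2.85, 0, 62.1, 37.4, 87.2 and 6.23 CPM (ratio 30.1, 5.27 to 1201, adjusted p = 0.0145, and up to 0.172 without 1 Ctrl mouse). Cd63, a tetraspanin of late endosomes, had 2.85, 3.46, 62.1, 69.8, 10.3 and 56.1 CPM (ratio 21.4, 5.81 to 178, adjusted p = 0.00367, and up to 0.106 without 1 Ctrl mouse). Ctsd, a lysosomal protease, had 99.8, 58.7, 300, 360, 185 and 162 CPM (log2 fold change 1.99 ± 0.36, adjusted p = 0.00404, and 0.151 without Ctrl 2). Lgals3, galectin-3, had 59.9, 89.8, 209, 196, 205 and 99.7 CPM (1.39 ± 0.37, adjusted p = 0.049), a call lost without any 1 Ctrl or Pre-T mouse (adjusted p up to 0.49). Plin2, which coats lipid droplets, did not pass the test at 174, 89.9, 274, 322, 226 and 37.4 CPM.

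**Figure D3:**
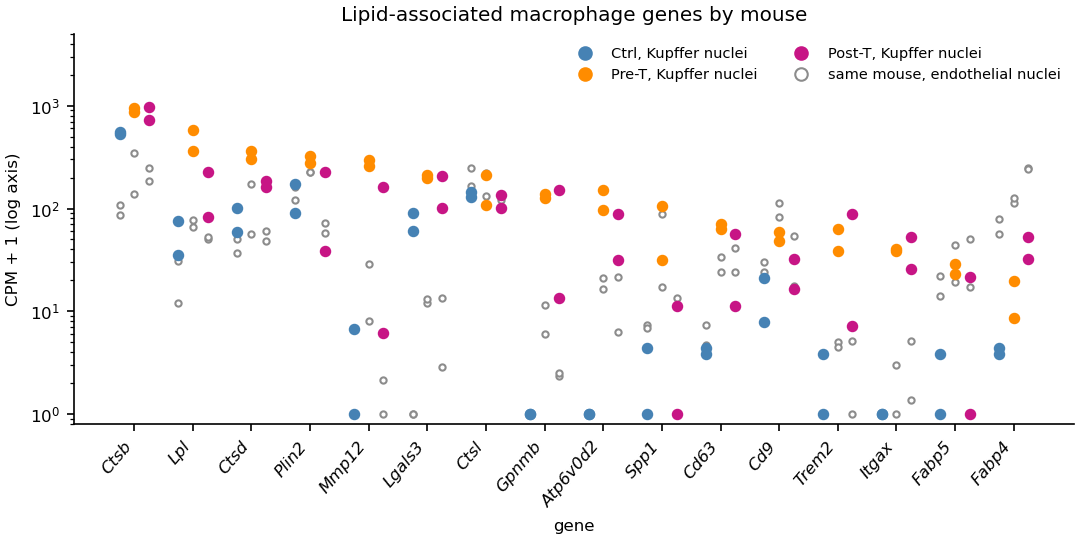
Level of the 16 lipid-associated macrophage genes in Kupffer nuclei (filled) and in endothelial nuclei of the same mice (open), as CPM + 1 on a log axis, 1 point per mouse. Gpnmb, Atp6v0d2 and Itgax are at 0 in both Ctrl mice and at 38.0 to 150 CPM in both Pre-T mice.

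These transcripts were counted in single nuclei as well. A nucleus was counted as carrying it with at least 2 UMIs of 7 defining genes (Gpnmb, Trem2, Cd9, Spp1, Fabp5, Itgax and Atp6v0d2). This was so for 1 of 132 nuclei in Ctrl 1 (0.758%, 95% interval 0.0192 to 4.15, exact binomial) and 0 of 115 in Ctrl 2 (exact binomial interval up to 3.16%). In Pre-T 1 it was 54 nuclei (25.6%, 19.8 to 32.0) and in Pre-T 2 88 (23.4%, 19.2 to 28.0). In Post-T 1 it was 13 (29.5%, 16.8 to 45.2) and in Post-T 2 7 (15.9%, 6.64 to 30.1). At full depth, all 4 Western Diet mice were thus above both Ctrl mice, which did not hold for Post-T 2 after thinning.

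The same count was made in other nuclei and at equal depth. In endothelial nuclei of the same mice they were 2.75, 1.63, 10.5, 16.7, 6.74 and 1.20%, and after thinning to 1000 UMIs they were 0, 0, 10.5, 10.8, 7.14 and 0% in Kupffer and 0.233, 0.202, 3.77, 3.41, 2.86 and 0% in endothelial nuclei. Other myeloid nuclei had 8.57, 15.8, 13.9, 24.0, 12.6 and 15.7% without thinning and 0, 6.90, 6.34, 7.86, 4.03 and 9.30% after it. After thinning they were thus above Kupffer nuclei in Ctrl 2 and Post-T 2 and below them in Pre-T 1, Pre-T 2 and Post-T 1. Nuclei with the program were deeper, with a median of 3813 UMIs against 2677 in the rest of Pre-T 1 and 3452.5 against 2584 in Pre-T 2. Timd4 and Clec4f are genes of the rule, so their shares are a description. In Pre-T 1 Timd4 was detected in 35.2% of Kupffer nuclei with the program against 52.9% of the rest. In Pre-T 2 it was 45.5 against 46.5%. In Post-T 1, with 13 such nuclei, it was 15.4 against 22.6%. Post-T 2, with 7, went the other way, at 71.4 against 59.5%. Clec4f was detected in 27 of the 54 against 60.5% of the rest in Pre-T 1, and in 60.2 against 76.7% in Pre-T 2. For Clec4f, Post-T 1 had 23.1 against 32.3% and Post-T 2 had 28.6 against 29.7%. In Post-T 1, 49.3% of all UMIs of the 7 genes lay in 1 nucleus.

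Cholesterol and lipid handling genes moved in both directions, 4 higher and 2 lower of 19. Cd36, a receptor for fatty acids and oxidized lipoproteins, had 68.4, 34.6, 227, 217, 97.4 and 56.1 CPM and rose (log2 fold change 2.02 ± 0.39, adjusted p = 0.00583, and 0.173 without Ctrl 2). Abcg1, a cholesterol exporter, had 62.7, 104, 268, 218, 313 and 330 CPM and rose (1.49 ± 0.36, adjusted p = 0.0266, and up to 0.395 without Ctrl 1, Ctrl 2 or Pre-T 1). Pparg, a nuclear receptor of lipid metabolism (chr6:115360951-115490399, plus strand), had 59.9, 79.5, 378, 276, 1026 and 554 CPM and rose as the single higher member of 16 macrophage transcription factors tested (2.17 ± 0.38, adjusted p = 0.00308, and 0.132 without Ctrl 1). Pltp, a phospholipid transfer protein, passed narrowly (1.31, adjusted p = 0.0499, and up to 0.519 without 1 mouse). Apoe and Abca1 did not pass, with Apoe at 3142, 1918, 2503, 6445, 815 and 3975 CPM.

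Of 16 antigen presentation genes, 6 rose and 0 fell in Pre-T mice, with a median of 0.95. Cd74, the invariant chain of class II molecules, had 145, 152, 439, 588, 92.3 and 112 CPM (log2 fold change 1.74 ± 0.35, adjusted p = 0.00789). The class II genes H2-Aa, H2-Ab1, H2-Eb1 and H2-DMb1 rose by 2.16, 1.75, 1.92 and 2.45 on the log2 scale (adjusted p = 0.00602 to 0.0172), and so did B2m, the light chain of class I molecules (151, 159, 349, 695, 246 and 430 CPM, 1.72 ± 0.41, adjusted p = 0.0258). Both Pre-T mice were above both Ctrl mice for each. The list lost all 6 calls without Ctrl 1 and kept 1 without Ctrl 2, and Cd74 alone had an adjusted p of up to 0.159 without 1 mouse. Cd74 also rose in endothelial nuclei (11.3, 14.7, 62.9, 176, 15.1 and 12.2 CPM, adjusted p = 0.0312), where it was detected in 2.75, 2.93, 21.4 and 38.4% of Ctrl and Pre-T nuclei against 24.2, 23.5, 56.9 and 66.2% of Kupffer nuclei.

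Of the 17 identity genes, 3 fell and 0 rose in Pre-T mice. Cd163, the scavenger receptor for haemoglobin (chr6:124304656-124330527, plus strand), had 157, 467, 19.0, 11.4, 5.13 and 6.23 CPM. Both Ctrl mice were far above all 4 Western Diet mice, and the log2 fold change to Pre-T was -4.41 ± 0.48 (adjusted p = 2.83e-05, and 0.000921 at most without 1 Ctrl or Pre-T mouse). It was detected in 22.0 and 41.7% of Ctrl, 6.16 and 3.19% of Pre-T and 2.27% of the nuclei of either Post-T mouse, and in at most 0.813% of endothelial nuclei. Fcna, a ficolin of the lectin complement pathway, had 157, 76.0, 29.2, 41.4, 46.2 and 125 CPM (-1.77 ± 0.46, adjusted p = 0.0421, and up to 0.684 without Ctrl 1 or Pre-T 1). Spic, the transcription factor of iron-recycling macrophages, had 151, 145, 68.5, 52.8, 144 and 218 CPM (-1.35 ± 0.35, adjusted p = 0.0456, lost without any 1 of these mice, up to 0.377). Slc40a1 did not pass, with a log2 fold change of -0.69 ± 0.45 (adjusted p = 0.595).

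Phagocytic and complement genes had few calls, all upward. Of 23 scavenger and phagocytosis genes, 3 rose: Cd36, the Fc receptor Fcgr4 (2.59, adjusted p = 0.0297, up to 0.344 without 1 Ctrl mouse) and the Fc receptor chain Fcer1g (1.52, adjusted p = 0.0327, lost without any 1 mouse of the pair of groups, up to 0.321). Of 12 complement genes, C1qa (103, 114, 322, 321, 128 and 81.0 CPM, 1.51 ± 0.34, adjusted p = 0.0167) and C1qc (94.1, 107, 268, 254, 133 and 74.8 CPM, 1.32 ± 0.34, adjusted p = 0.0421), which encode chains of the first complement component, rose, and both lost the call without any 1 of these mice (up to 0.248 and 0.375). Mertk, a receptor for apoptotic cells, did not pass at 1098, 1517, 1885, 1147, 1482 and 2355 CPM, nor did the mannose receptor Mrc1 at 761, 1082, 898, 650, 446 and 960 CPM. Of 17 interferon response genes Oasl2 alone rose (28.5, 13.8, 127, 70.6, 56.4 and 49.8 CPM, 2.09, adjusted p = 0.0188, up to 0.29 without 1 mouse).

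Of 7 monocyte markers tested, 1 rose. Ccr2, the chemokine receptor by which monocytes enter tissue, had 0, 0, 105, 50.3, 10.3 and 6.23 CPM and was at least 15.3-fold higher in Pre-T (adjusted p = 0.000469, and 0.0205 at most without 1 of these mice). It was detected in 18.0 and 8.78% of Pre-T Kupffer nuclei, in 4.03 and 1.48% of Pre-T endothelial nuclei, and in 0 of 132 and 0 of 115 Ctrl Kupffer nuclei, with the same limits on nuclei with a UMI as for Gpnmb. The monocyte list summed to 57.0, 13.8, 183, 133, 92.3 and 6.23 CPM in Kupffer and 122 to 986 CPM in other myeloid nuclei. At least 2 UMIs of these markers were found in 3, 0, 23, 28, 2 and 0 Kupffer nuclei. What part such nuclei had in the other calls was not tested.

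Among genes outside the lists, chosen by the size of their change among well-expressed called genes, St18 and Chst11 rose in Pre-T mice. St18, a zinc finger transcription factor (chr1:6487231-6860940, plus strand), had 8.55, 10.4, 224, 173, 477 and 93.5 CPM (log2 fold change 4.30 ± 0.63, adjusted p = 0.000523, and 0.0402 at most without 1 of these mice). Chst11, a chondroitin sulfotransferase, had 2.85, 6.91, 147, 136, 35.9 and 12.5 CPM (95% counting interval of the ratio 10.2 to 146, adjusted p = 0.000115). Klra17, a lectin-like receptor of a family of near-identical genes, was at 0 in both Ctrl mice and at 55.8 and 61.7 CPM in Pre-T (at least 12.7-fold, adjusted p = 0.0206, up to 0.256 without 1 Ctrl mouse). Slit3 and Saa1 rested mostly on Pre-T 2. Slit3, a secreted guidance factor, had 0, 0, 13.9, 131, 30.8 and 0 CPM (at least 18.2-fold, adjusted p = 0.016, up to 0.224 without Ctrl 1, Ctrl 2 or Pre-T 2), with 47 of its 161 UMIs in Pre-T 2 in 1 nucleus. Saa1, an acute-phase protein of hepatocytes and one of several similar genes, had 8.55, 0, 36.8, 218, 61.5 and 0 CPM and 12.1, 2.93, 21.3, 191, 78.3 and 2.67 CPM in endothelial nuclei (adjusted p = 0.0134, up to 0.17 without 1 of the same 3 mice).

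Among the genes that fell by the most, Hpgd, which degrades prostaglandins, had 436, 612, 101, 117, 25.6 and 224 CPM (log2 fold change -2.30 ± 0.50, adjusted p = 0.015, up to 0.137 without 1 Ctrl mouse). Kcnq1, a potassium channel, had 103, 89.8, 20.3, 14.6, 0 and 12.5 CPM (-2.53 ± 0.46, adjusted p = 0.00404, and 0.119 without Ctrl 1). Pde1c, a phosphodiesterase, had 62.7, 176, 21.6, 9.74, 5.13 and 24.9 CPM (-3.01 ± 0.53, adjusted p = 0.00274, and 0.172 without Ctrl 2). Both Ctrl mice were above all 4 Western Diet mice for these 3 genes. The basement membrane gene Nid2 fell by 3.86 on the log2 scale, Tafa1 by 4.76 and the adenylyl cyclase Adcy4 by 2.56, with the calls lost without 1 Ctrl mouse (adjusted p up to 0.139, 0.1 and 0.0831). Frmd5, Rtn1 and Dscaml1 (-4.00, -2.69 and -2.63) also rested on 1 Ctrl mouse, with adjusted p up to 0.842, 0.594 and 0.239 without it or, for Dscaml1, Pre-T 2.

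The second comparison sets Post-T against Ctrl mice. In Post-T Kupffer nuclei 697 genes changed, 4.38% of those tested, with 180 higher (1.13%) and 517 lower (3.25%). There were 404 calls without Post-T 1 and 1028 without Post-T 2. For 465 of the 517 lower genes, the Ctrl level in Kupffer nuclei was below that in the other nuclei of those mice. This share, too, was not counted over all tested genes and is not read as a result. Of the 10 hepatocyte markers, 6 fell (median -2.14 against -0.13 over all genes), which were Cps1 (-3.59, adjusted p = 9.44e-05), Pck1 (-3.64, adjusted p = 0.000163), Fgb, Mup20, Cyp3a11 and Serpina1a. The calls of the last 4 were lost without Ctrl 1 or, for Cyp3a11 and Serpina1a, another mouse (adjusted p up to 0.693). The groups did not overlap in CPM for 37.5% of all tested genes.

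Of the 17 identity genes, 6 fell and 0 rose between Ctrl and Post-T mice, with a median of -1.30, and 4 were lower without Post-T 1. Cd163 fell from 190 UMIs in the Ctrl to 2 in the Post-T nuclei (ratio 52.8, 95% counting interval 14.4 to 439, adjusted p = 2.95e-05). Abcc3, a transporter of organic anions (chr11:94343295-94392997, minus strand), had 428, 494, 285, 239, 92.3 and 156 CPM, with a log2 fold change of -1.99 ± 0.38 (adjusted p = 0.00246). Cdh5, the adhesion molecule VE-cadherin (chr8:104101625-104144511, plus strand), had 140, 142, 98.9, 95.8, 20.5 and 31.2 CPM, with a log2 fold change of -2.56 ± 0.47 (adjusted p = 0.00185). Both Post-T mice were below all 4 other mice for Abcc3 and Cdh5, and these 3 calls remained without any 1 Ctrl or Post-T mouse.

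The other 3 identity genes lost their call without Ctrl 1, Ctrl 2 or Post-T 1. C6, a late complement component, had 833, 1254, 484, 550, 92.3 and 461 CPM (log2 fold change -1.98 ± 0.50, adjusted p = 0.0239, up to 0.19), Clec1b, the podoplanin receptor CLEC-2, 94.1, 135, 166, 99.1, 15.4 and 43.6 CPM (-2.08 ± 0.53, adjusted p = 0.0228, up to 0.281), and Scarf1, a scavenger receptor, 54.2, 65.7, 39.3, 35.7, 10.3 and 12.5 CPM (-2.49 ± 0.64, adjusted p = 0.0253, up to 0.191). Abcc3 and C6 also fell in endothelial nuclei, by 1.96 and 1.87 on the log2 scale (adjusted p = 0.016 and 0.024). Slc40a1 turned on 1 mouse: its log2 fold change was -1.30 ± 0.46 (adjusted p = 0.143), -2.54 without Post-T 2 (adjusted p = 0.000193) and -0.61 without Post-T 1 (adjusted p = 0.551). Hmox1, which breaks down haem, did not pass at 82.7, 69.1, 78.6, 52.8, 108 and 187 CPM.

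Pparg was the transcription factor that rose again, with a log2 fold change of 3.39 ± 0.40 from Ctrl to Post-T (adjusted p = 2.64e-05, and 0.00401 at most without 1 of these mice). It was detected in 14.4, 16.5, 49.8, 35.4, 63.6 and 65.9% of Kupffer nuclei and in 10.6, 12.2, 33.1, 21.7, 37.9 and 37.4% of endothelial nuclei. Abcg1 rose by 1.86 ± 0.37 on the log2 scale (adjusted p = 0.00349, and 0.122 without Ctrl 1). Acsl1, which activates long-chain fatty acids, fell from 519 and 501 to 97.4 and 74.8 CPM (log2 fold change -2.67 ± 0.39, adjusted p = 0.000207, and 0.00538 at most without 1 of these mice). Its endothelial level was 625, 520, 494, 578, 220 and 150 CPM.

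**Figure D4:**
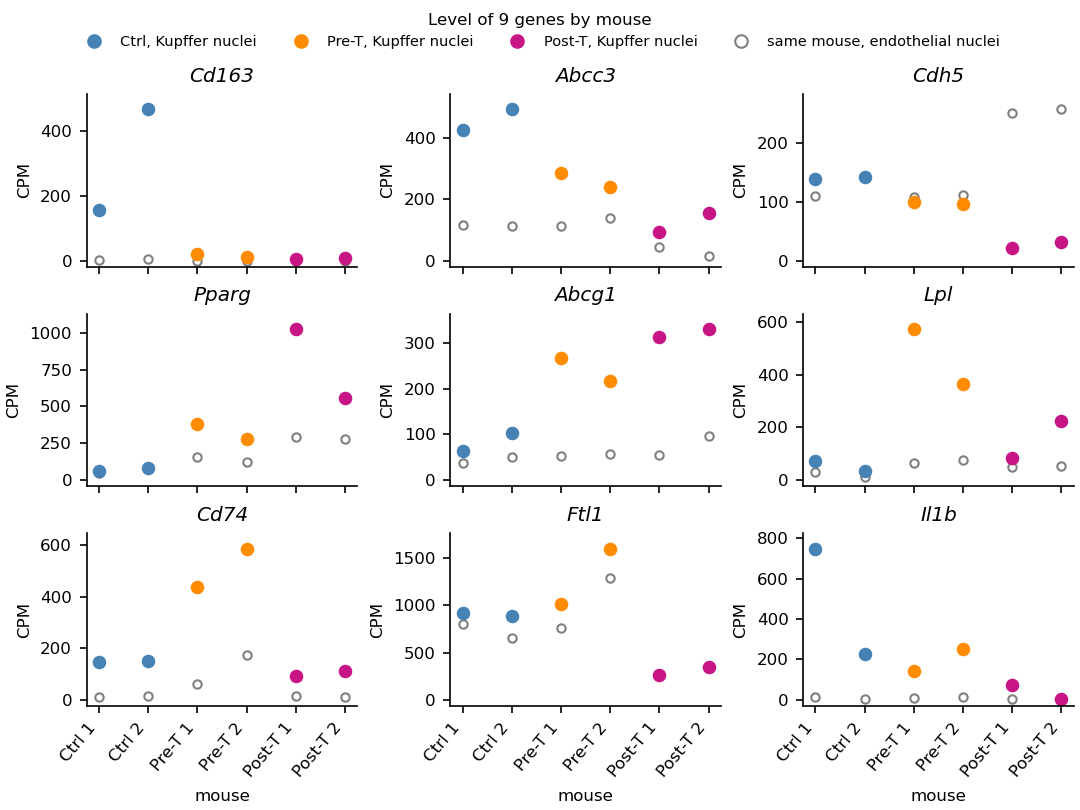
Level in CPM of 9 genes in Kupffer nuclei (filled) and endothelial nuclei (open) of each mouse, 1 point per mouse. Cd163 is high in both Ctrl mice only (157 and 467 CPM), Pparg and Abcg1 are above Ctrl in all 4 Western Diet mice, and Cd74 is highest in the 2 Pre-T mice (439 and 588 CPM).

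Lipid-associated macrophage genes had 6 higher and 0 lower of 16 in Post-T mice (median 2.06, and 5 higher without Post-T 1). Atp6v0d2, at 30.8 and 87.2 CPM (adjusted p = 0.00115), kept its call without either Post-T mouse, and so did Itgax at 51.3 and 24.9 CPM (at least 8.40-fold, adjusted p = 0.00349, but 0.0507 without Ctrl 1). The rest rested on 1 mouse or even 1 nucleus. Gpnmb was at least 18.6-fold higher (adjusted p = 0.00138, and 0.207 without Post-T 1), and 26 of its 29 UMIs in Post-T 1 came from 1 nucleus. Mmp12 had a counting ratio of 24.3 (6.11 to 211, adjusted p = 0.0178, up to 0.938 without Post-T 2), with 24 of 26 UMIs of Post-T 2 in 1 nucleus. Trem2 had 87.2 and 6.23 CPM (adjusted p = 0.0184, up to 0.834 without Post-T 1), and Fabp4, a fatty acid binding protein, 51.3 and 31.2 CPM, below the 55.5 to 245 CPM of endothelial nuclei (adjusted p = 0.0346, up to 0.249 without 1 mouse).

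Cytokine and iron genes that passed in Post-T mice were all lower. Il1b, interleukin 1 beta (chr2:129364570-129371139, minus strand), had 750, 228, 141, 253, 71.8 and 6.23 CPM and fell from Ctrl to Post-T (log2 fold change -3.72 ± 0.64, adjusted p = 0.00104, and 0.0589 without Ctrl 1). Its highest level was in Ctrl 1, where it was detected in 56.1% of the nuclei against 2.27 to 31.1% in the other mice. Il1a fell as well (-2.14, adjusted p = 0.0461, up to 0.593 without 1 mouse), as 2 of 27 cytokine and inflammation genes. Of 14 iron and haem genes, Cd163 and Ftl1 fell. Ftl1, the ferritin light chain (chr7:45457944-45459884, minus strand), had 921, 888, 1014, 1601, 267 and 349 CPM (-1.65 ± 0.38, adjusted p = 0.0125, up to 0.144 without 1 mouse), and in endothelial nuclei 807, 655, 762, 1288, 276 and 334 CPM. Mki67, of dividing cells, was the 1 of 15 proliferation genes that rose (11.4, 0, 10.1, 25.2, 113 and 24.9 CPM, 3.34 ± 0.89, adjusted p = 0.0321, up to 0.64 without Ctrl 2 or Post-T 1), with 12 of its 22 Post-T 1 UMIs in 1 nucleus. Fcgr4, the Fc receptor, rose again (adjusted p = 0.00421, lost without Ctrl 1 or Post-T 1). The complement gene C2 fell (counting ratio 6.29, 1.98 to 32.0, adjusted p = 0.033, lost without any 1 mouse).

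Of the genes with the largest changes, St18 and Itgad rose in Post-T mice with either mouse left out. St18 had a log2 fold change of 4.77 ± 0.64 (adjusted p = 9.19e-05) and lay at 477 and 93.5 CPM. Itgad, the integrin CD11d, had 0, 0, 11.4, 47.1, 149 and 81.0 CPM (at least 25.2-fold higher, adjusted p = 0.000419), though 12 of its 13 UMIs in Post-T 2 came from 1 nucleus. Hs3st2, Sirpb1a, Rbfox1, Specc1 and Flrt2 rose through Post-T 1, and so did Dpep2, a symbol that the files give to more than 1 gene (adjusted p = 0.0207, up to 0.853 without 1 mouse). Hs3st2, a heparan sulfate sulfotransferase, had 0, 0, 0, 13.8, 518 and 24.9 CPM (adjusted p = 0.00138, and 0.271 without Post-T 1), Sirpb1a, of a family of similar receptors, 5.70, 10.4, 178, 123, 800 and 43.6 CPM (0.000439 and 0.118), and Rbfox1, a splicing factor, 5.70, 3.46, 24.1, 5.68, 523 and 12.5 CPM (0.00238 and 0.855). In Post-T 1 the 101 UMIs of Hs3st2 lay in 16 nuclei and the 102 of Rbfox1 in 19. Of those that fell, Dscaml1 was at 0 in both Post-T mice and at 82.7 and 173 CPM in the Ctrl mice (at least 14.6-fold lower, adjusted p = 0.00104), and Kcnq1 fell from 103 and 89.8 to 0 and 12.5 CPM (ratio 17.2, 4.57 to 145, adjusted p = 0.00188). Both calls remained without any 1 Ctrl or Post-T mouse. Frmd5, Tafa1, Srgap3, Gpm6b, Nid2 and Dgkg fell with log2 fold changes of -7.87 to -3.38 and lost the call without 1 mouse (adjusted p up to 0.618).

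The third comparison holds the diet constant and sets 48 weeks with tumors against 40 weeks before tumors. Here 185 genes changed, 1.16%, with 31 higher (0.195%) and 154 lower (0.967%) in Post-T mice. The median of all genes was -0.35 on the log2 scale and moved by 0.153 with RLE scaling, under which 46 genes were called, so changes are read relative to that median. There were 151 calls without Post-T 1, and with a minimum of 10 counts 1 call was left. The groups did not overlap in CPM for 44.6% of all tested genes.

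Antigen presentation genes, higher in Pre-T than in Ctrl mice, were lower in Post-T than in Pre-T mice for 4 of 16 genes. Cd74 fell from 439 and 588 to 92.3 and 112 CPM (log2 fold change -2.38 ± 0.38, adjusted p = 0.0038), H2-Ab1 from 169 and 194 to 46.2 and 37.4 CPM (-2.16 ± 0.41, adjusted p = 0.0112), H2-Aa from 165 and 232 to 35.9 and 43.6 CPM (-2.38 ± 0.46, adjusted p = 0.0119, and 0.072 without Post-T 1), and H2-Eb1 from 204 and 231 to 35.9 and 93.5 CPM (-1.82 ± 0.43, adjusted p = 0.0383, up to 0.249 without Pre-T 2 or Post-T 1). Both Post-T mice were below both Pre-T mice and near the Ctrl mice for these genes. The 2 comparisons share the Pre-T mice, so they are not independent. Cd74 fell in endothelial nuclei as well (-2.84, adjusted p = 0.016).

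Other macrophage genes that fell from Pre-T to Post-T mice were Lyz2, lysozyme (77.0, 58.7, 394, 432, 71.8 and 6.23 CPM, log2 fold change -3.40 ± 0.50, adjusted p = 0.00258), and Wfdc17 (39.9, 20.7, 120, 171, 35.9 and 12.5 CPM, -2.61 ± 0.52, adjusted p = 0.0134), both with calls that remained without any 1 of these mice. Both fell in endothelial nuclei as well, where Lyz2 had 57.8 and 198 CPM in Pre-T and 8.24 and 5.34 CPM in Post-T mice (-4.01, adjusted p = 0.015). Of the identity genes 3 fell and 1 rose. Folr2, folate receptor beta, fell from 88.8 and 82.8 to 10.3 and 12.5 CPM (-2.95 ± 0.58, adjusted p = 0.0124, and 0.0802 without Post-T 1), Clec1b by 2.23 on the log2 scale (adjusted p = 0.0308, up to 0.242 without Pre-T 1 or Post-T 1) and Cdh5 by 1.97 (adjusted p = 0.0381, up to 0.216 without 1 mouse). Spic rose from 68.5 and 52.8 to 144 and 218 CPM, the level of the Ctrl mice (1.54 ± 0.37, adjusted p = 0.0394, up to 0.284 without Pre-T 1, Pre-T 2 or Post-T 2).

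Ferritin fell in this comparison too. Ftl1 fell by 2.14 on the log2 scale (adjusted p = 0.00747, and 0.0424 at most without 1 of these mice), and the heavy chain Fth1 by 1.86 (adjusted p = 0.0356, up to 0.158 without Pre-T 2 or Post-T 1). The complement gene C1qa fell by 1.66 (adjusted p = 0.0204, and 0.0859 without Pre-T 2), while the signalling adaptor Tyrobp (105, 76.0, 209, 222, 35.9 and 68.5 CPM, -2.11, adjusted p = 0.0137, and 0.0985 without Post-T 1) and Acsl1 (-1.89, adjusted p = 0.0148, and 0.132 without Pre-T 2) fell as well. Ccr2 fell from 145 UMIs in Pre-T to 3 in Post-T nuclei (ratio 8.50, 2.85 to 41.7, adjusted p = 0.0265, up to 0.152 without Pre-T 1 or either Post-T mouse). Of the 16 lipid-associated macrophage genes 0 passed edgeR's test (median -1.04), 8 had an unadjusted p under 0.05 and 0 were called by DESeq2, while Chst11 fell from 147 and 136 to 35.9 and 12.5 CPM (-2.55 ± 0.49, adjusted p = 0.0114). Gbp2b, Ifitm3 and Plxdc2 fell with log2 fold changes of -3.07, -2.49 and -2.39, and Clec1a by a counting ratio of 7.27 (2.43 to 35.7). The calls of these genes were lost without 1 mouse. Mup20, a major urinary protein of hepatocytes, fell by 4.80 on the log2 scale (1132, 480, 516, 2520, 113 and 0 CPM, adjusted p = 0.00556) and had 1410, 632, 730, 2304, 174 and 2.29 CPM in endothelial nuclei.

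Of the genes higher in Post-T than in Pre-T mice, Fkbp5 and Ccnd3 kept their call without any 1 mouse. Fkbp5, a cochaperone induced by glucocorticoids, had 68.4, 114, 90.0, 91.8, 390 and 866 CPM (log2 fold change 2.76 ± 0.41, adjusted p = 0.00258). Ccnd3, cyclin D3, had 79.8, 121, 88.8, 99.1, 503 and 312 CPM (2.05 ± 0.35, adjusted p = 0.00556). Both Post-T mice were above all 4 other mice for both genes. Both also rose in endothelial nuclei, where Fkbp5 reached 530 and 533 CPM and Ccnd3 297 and 168 CPM (2.22 and 2.35 on the log2 scale, adjusted p = 0.0066 and 0.0073). Gda, guanine deaminase, had 62.7, 20.7, 217, 191, 841 and 455 CPM (1.61 ± 0.39, adjusted p = 0.0406, up to 0.163 without Pre-T 1, Pre-T 2 or Post-T 1). Hs3st2, Spats2l, Dgki, Lipg, Diaph3 and Sort1 rose by 1.88 to 4.97 on the log2 scale and lost the call without Post-T 1 (adjusted p up to 0.77).

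**Figure D5:**
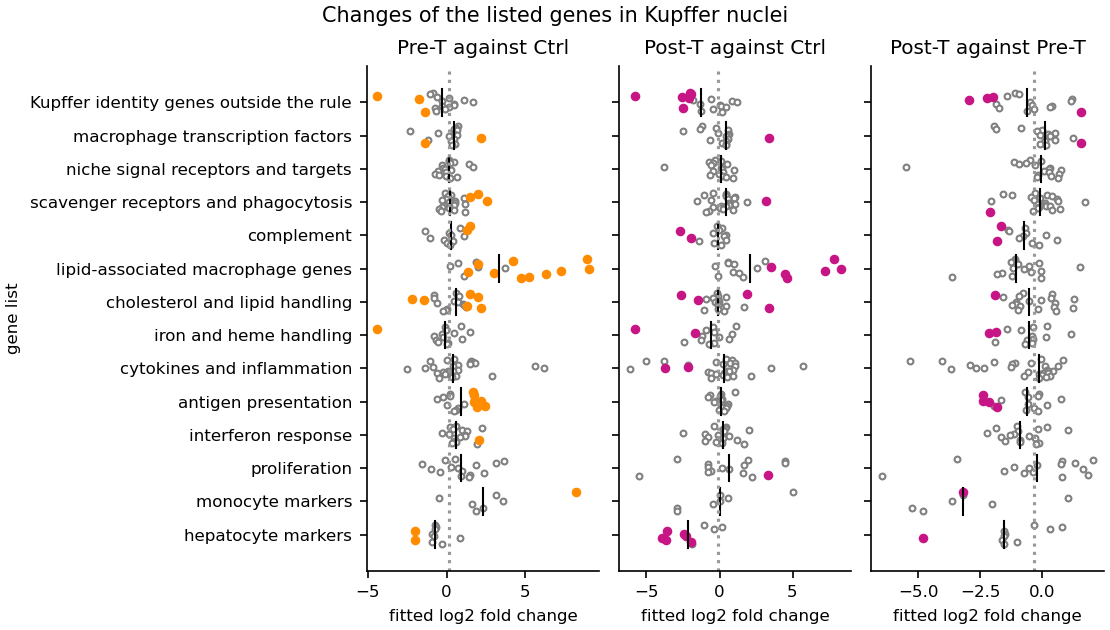
Fitted log2 fold change of every tested gene of 14 lists in Kupffer nuclei, 1 panel per comparison, with genes that passed the test filled, the median of each list as a black line and the median of all tested genes dotted. Lipid-associated macrophage genes lie to the right in both Western Diet comparisons with Ctrl (medians 3.37 and 2.06), and hepatocyte markers to the left in Post-T against Ctrl (median -2.14).

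Some programs gave no call. Of 17 genes of the niche signals that keep Kupffer cells (receptors and targets of transforming growth factor beta, Notch and colony-stimulating factor), 0 passed edgeR's test in the 3 comparisons. By an unadjusted p under 0.05 there were 1, 2 and 1, and by DESeq2 0 in each. The list summed to 1754, 1811, 2270, 1888, 2231 and 1894 CPM. Zeb2, a transcription factor that keeps macrophages in their tissue type, stood at 2472, 3159, 4236, 3087, 5118 and 3283 CPM without passing. For genes near 100 CPM or less, the depth of the Post-T mice, 194986 and 160509 UMIs, leaves under 20 counts per mouse, which limits the precision there.

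Whether a change in Kupffer nuclei differed from that in endothelial nuclei of the same mice was tested in 1 edgeR model with the mouse as a block. Other myeloid nuclei were not in this model, so it cannot show that a change was particular to Kupffer nuclei. The change differed for 83 of 15802 genes between Pre-T and Ctrl (0.525%), 335 between Post-T and Ctrl (2.12%) and 119 between Post-T and Pre-T (0.753%). Cdh5 fell in Post-T Kupffer nuclei and went from 110 and 144 to 251 and 258 CPM in endothelial nuclei, a difference in log2 fold change of -3.77 ± 0.54 (adjusted p = 4.03e-09). Chst11 rose more in Pre-T Kupffer nuclei, by 4.19 ± 0.80 (adjusted p = 0.000175), and Hpgd and Pde1c fell more, by 1.85 and 2.49 (adjusted p = 0.00212 and 7.63e-05). The log2 fold change of Kcnq1 was lower in Kupffer nuclei in both comparisons with Ctrl, by 2.02 and 4.92 (adjusted p = 0.00752 and 4.25e-08). In Post-T against Ctrl its endothelial log2 fold change was 0.73 and was not called, so Kcnq1 did not fall there. No difference was called for Lpl (adjusted p = 0.267), Ctsd (0.646) and Pparg (0.258) in Pre-T against Ctrl, nor for Cd74 (0.317). For Gpnmb, Atp6v0d2 and Itgax, which had no UMI in either cell type of the Ctrl mice, the difference could not be estimated.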

How the data were processed

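Livers were resected at the end of each diet, snap-frozen and used for single-nucleus RNA sequencing with the 10X Genomics Chromium system (3' libraries, Next GEM v3.1), 1 library per mouse. The deposited values are UMI counts per gene and called barcode, which the authors made with Cell Ranger 6.1.1 on mm10, with no normalization, for 32285 genes. Whether intronic reads were counted is not given in the sources used here. The libraries held 22453658 to 40307564 UMIs. Near-identical genes (H2, Saa, Klra and Sirpb families) may share reads, so their values are uncertain.

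Nuclei were selected as described, and their UMIs were summed per mouse. Genes reaching 3 counts in sum over all mice entered edgeR 4.0.16 under R 4.3.3 (TMM, quasi-likelihood, 3 residual degrees of freedom, biological coefficient of variation 0.279), and genes with a Benjamini-Hochberg adjusted p under 0.05 were called changed. Fold changes are edgeR's. Their standard errors were computed from the fold change and the F statistic of the quasi-likelihood test, so they restate that test and are not a separate estimate. A gene with 0 counts in a group was set against 3 counts over that group, which gives a lower bound, and one with 1 to 3 counts was given as a ratio with its 95% counting interval. Intervals and limits cover counting error only. The interaction with endothelial nuclei was fitted for genes with at least 10 counts, with the mouse as a block.

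Data were simulated with 200 genes changed, over 15316, 15332 and 15324 genes in the 3 comparisons as ordered in the report. Of log2 changes of 2 edgeR recovered 70.1, 58.2 and 61.1%, and of log2 changes of 3 it recovered 92.5, 80.7 and 84.8%. There were 32, 17 and 23 false calls. Even with all 200 changed genes called, these false calls would exceed the share that the adjusted p limit allows. The test was thus less strict in the simulation than that limit states. How many counts the changed genes had is not given here, so the recovery is not read for genes with few counts. Python 3.11.15 (numpy 2.4.6, scipy 1.17.1, pandas 2.3.3, matplotlib 3.10.9) was used for the rest, and positions are those of GENCODE M21 on GRCm38, which is mm10.

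Named genes were those called with a mean of at least 50 CPM in the higher group, no overlap between the 2 groups and a level in Kupffer nuclei at or above that of all other nuclei, up to 10 in each direction by size of change, and called members of 14 gene lists with the most abundant members beside them. Values of some called genes are not reported here. The members, markers and lists were chosen with earlier results of these data known. Alternatives were DESeq2 1.42.0, RLE size factors, minimums of 1 and 10 counts, only the 2 groups compared, a replicate block, stricter marker and exclusion limits, nuclei with a lower hepatocyte share, and each mouse left out.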

Additional observations from a re-analysis of the deposited data

Results flagged for a closer look

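The change of 15 of the genes described above between groups of mice differed between Kupffer and endothelial nuclei, in the edgeR test of the interaction with the mouse as a block (2 mice per group, adjusted over 15802 genes). Differences are log2 fold changes in Kupffer minus those in endothelial nuclei. Between Pre-T and Ctrl mice the difference was 4.19 for Chst11 (adjusted p = 0.000175), -2.49 for Pde1c (7.63e-05), -2.02 for Kcnq1 (0.00752) and -1.85 for Hpgd (0.00212). For Slit3 it was 8.29 (0.000223). Slit3 had no UMI in Kupffer nuclei of either Ctrl mouse, so this size is not an estimate. Its Kupffer UMIs were 11 in Pre-T 1 and 161 in Pre-T 2. For Lgals3 the difference was -4.85 (0.0423). That gene was absent from endothelial nuclei of both Ctrl mice and had 11.2 and 12.2 CPM in those of Pre-T mice, so the size of its difference is not a bound.

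With tumors (Post-T against Ctrl) the difference was 6.13 for Rbfox1 (adjusted p = 1.42e-11), 6.29 for Flrt2 (4.25e-08), 4.38 for Specc1 (0.00016), -4.92 for Kcnq1 (4.25e-08), -5.29 for Nid2 (2.43e-07), -3.77 for Cdh5 (4.03e-09), -2.94 for Scarf1 (0.00432) and -1.68 for Pck1 (0.0135). Rbfox1, Flrt2 and Specc1 stood at 523, 149 and 297 CPM in Post-T 1 against 12.5, 12.5 and 24.9 CPM in Post-T 2. Comparing both Western Diet groups, it was 3.33 for Spats2l (2.09e-05), -3.96 for Clec1a (2.09e-05), -4.50 for Chst11 (2.96e-10) and -3.49 for Cdh5 (2.01e-07). Spats2l stood at 164 CPM in Post-T 1 and 24.9 CPM in Post-T 2.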

How the results depend on the processing

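The number of called genes depended on the settings more than the direction of the changes did. Between Pre-T and Ctrl mice it was 363, and 133 with DESeq2, 239 with RLE size factors, 71 with at least 10 counts, 796 with at least 1 count, 763 with the 2 groups alone, 678 with a replicate block, 27 in nuclei at or below the median hepatocyte share of their mouse, and 72 (without Ctrl 1) to 829 (without Post-T 2) with 1 mouse left out. Between Post-T and Ctrl mice it was 697, and 386 with DESeq2, 325 with at least 10 counts, 65 at the lower hepatocyte share, 988 with a replicate block, and 292 (without Ctrl 1) to 1028 (without Post-T 2). For the 2 Western Diet groups it was 185, and 85, 46, 1, 592, 88 and 491 under the first 6 of these settings, 329 in nuclei with no UMI of the excluded genes, 6 at the lower hepatocyte share, and 142 (without Ctrl 1) to 497 (without Post-T 2). Minimums of 10 and 1 counts test 12938 and 19176 genes, the other causes were not tested. Of the 363, 697 and 185 genes, 130, 376 and 73 were also called by DESeq2, 71, 325 and 1 with at least 10 counts, and 363, 696 and 185 with the replicate block. The replicate numbers did not pair the mice (correlations of -0.236, 0.0914 and 0.0609 between groups over 4318 genes).

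The interaction counts 83, 335 and 119 became 19, 139 and 46 with at least 30 counts, and 16 to 224, 98 to 594 and 28 to 234 with 1 mouse left out. Of 121 named results, 89 lost their call with at least 10 counts, 90 at the lower hepatocyte share, 61 with DESeq2, 65 without Ctrl 1, 47 without Ctrl 2 and 42 without Post-T 1, and no direction turned. The Kupffer share with at least 5 marker UMIs in the 3 groups was 1.38, 3.11 and 0.651%. As a share of nuclei with a Csf1r or Adgre1 UMI it was 20.1, 13.4 and 7.59%, with at least 2 such UMIs (chosen after seeing the data) 35.4, 21.2 and 13.3%, and after thinning it was 0.602% in Post-T mice. Of all Kupffer nuclei 88 came from Post-T mice, which limits the precision of low levels there.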
